A study of Mus musculus with 6 samples.

Results

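Klrb1a, Klrb1b, Klrb1c, Klrb1f, Clec2d, Clec2i, Klrg1 and Ncr1 encode receptors by which natural killer (NK) cells read their targets, together with a pair of the ligands. These 8 genes were taken by name from the 57180 genes of the count table, and all 8 had enough counts to be among the 14761 genes tested. RNA was measured in NK cells sorted as CD3- NK1.1+ and split by surface CD36, a scavenger receptor that takes up fatty acids, into CD36+ NK and CD36- NK, with 3 libraries in each group. Both groups came from the fibrotic livers of male C57BL/6J mice, described as 6 to 8 weeks old. The mice were injected with CCl4 (a 20% solution, 2.5 ml/kg) 2 times a week over 4 weeks and killed 48 h after the final dose. No library came from an oil-treated mouse, so the groups differed in the CD36 gate and shared the treatment. Neither the labels nor the methods state how many mice each library came from, and p-values therefore measure the spread between these samples. The question was how CD36+ NK differed from CD36- NK in the fibrotic liver.

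NKR-P1 receptors are C-type lectin-like proteins of the NK cell surface, encoded by the Klrb1 genes, and some of them bind the Clr proteins, which related Clec2 genes encode in the same stretch of the genome. NKR-P1A, NKR-P1C and NKR-P1F activate the cell, while NKR-P1B inhibits it when it meets Clr-b, a Clr protein that most healthy blood cells display. KLRG1 is an inhibitory receptor for cadherins that marks mature NK cells and effector T cells, and NKp46, the product of Ncr1, is an activating receptor that in mice is found mainly on NK cells and other innate lymphoid cells. NKR-P1C carries the NK1.1 epitope of C57BL/6 mice, so Klrb1c encodes the protein by which both groups were sorted.

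The libraries held between 10292480 and 13787189 counts, and replicates varied with a biological coefficient of variation of 20.3%. Cd36 itself was higher in each CD36+ NK library (109.7 to 262.6 CPM, counts scaled to library size) than in any CD36- NK library (14.3 to 31.7 CPM), with a log2 fold change of 3.27 and an edgeR adjusted p of 0.00615. The 10 NK-lineage marker genes (Nkg7, Klrk1, Klrd1, Klre1, Il2rb, Tbx21, Txk, Gzmb, Ctsw and Il18rap) were detected in both groups. Their summed level ran from 841.1 to 1141 CPM in CD36+ NK and from 4297 to 5864 CPM in CD36- NK, and 10 of 10 fell in CD36+ NK. Markers of other cells were present in both groups as well. The 8 B cell genes summed to between 12030 and 13810 CPM in CD36+ NK and between 7425 and 9678 CPM in CD36- NK, and 0 of 8 were called. The 12 macrophage and Kupffer cell genes summed to between 6736 and 9368 CPM in CD36+ NK and between 2472 and 5812 CPM in CD36- NK. Lyz2 was the largest of that sum and overlapped between the groups, at 3962 CPM on average in CD36+ NK and 3710 CPM in CD36- NK. All 10 tested had a positive log2 fold change, with a median of 2.89, and 4 of the 10 were called higher in CD36+ NK. The 8 T cell genes stood apart in CD36+ NK replicate 1, with 338.0 CPM, while the other 5 libraries had 27.4 to 47.7 CPM, and 2 of 8 (Cd4 and Cd8a) were called higher in CD36+ NK. The 8 erythroid genes summed to between 348.3 and 782.1 CPM in CD36+ NK and between 75.5 and 165.1 CPM in CD36- NK, and 5 of 8 were called higher. CD36+ NK replicate 1 also had the most neutrophil transcripts of its group, 2800 CPM against 519.7 and 586.3 CPM, in a list whose groups overlapped and of which 0 of 8 were called. Dendritic cell genes summed to 461.6 to 522.5 CPM in CD36+ NK, below the 612.2 to 815.2 CPM of CD36- NK, with 2 of 8 called higher and 1 lower. The gene called lower was Itgax, the largest of the sum, at 234.0 CPM on average in CD36+ NK and 513.0 CPM in CD36- NK. Of the 8 genes, 6 had a positive log2 fold change, and Xcr1 (2.46) and Clec9a (2.03) were those called higher. The sums of monocyte genes overlapped, and 2 of 8 (Cd14 and Clec4e) were called higher and 1 (Ccr2) lower. ILC2 genes had lower sums in CD36+ NK (15.5 to 23.9 CPM) than in CD36- NK (50.9 to 83.0 CPM). Gata3 and Rora, most of that sum, were called lower. Il1rl1 was at similar levels, 3.14 CPM in CD36+ NK and 3.01 CPM in CD36- NK (log2 fold change 0.04), and Areg, Il5 and Il13 had too few counts. Sinusoidal endothelial genes summed to 211.7 to 305.8 CPM and 153.4 to 168.9 CPM in the same order, with none of the 3 tested called, and hepatocyte genes to 1.75 to 10.52 CPM and 0.0884 to 0.846 CPM, too low to be tested. In bulk libraries such as these, fewer cells of a type and less RNA per cell cannot be told apart.

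All 6 receptor genes fell in CD36+ NK, and neither ligand gene passed the test. A gene was called where the adjusted p was below 0.05 and the fold change above 2, and 440 of the 14761 tested genes (2.98%) were called lower in CD36+ NK against 6 of the 8 described here. In either direction 5.96% of the tested genes were called. The CD36+ NK libraries all lay below the CD36- NK libraries for the same 6 genes, which was true of 15.7% of all tested genes, and none of the 8 lay wholly above, as 17.0% of all tested genes did (32.8% in either direction). The receptors retained between 18.2% and 29.3% of their CD36- NK level, and the median log2 fold change of the 8 genes was -2.12, against 0.01 over all tested genes. None of the 8 was called higher, at an unadjusted p below 0.05 the count was also 0, and DESeq2 and edgeR's exact test likewise gave 0. NK-lineage marker genes moved with the receptors, as given above, and their part in the result was not tested.

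**Figure D1:**
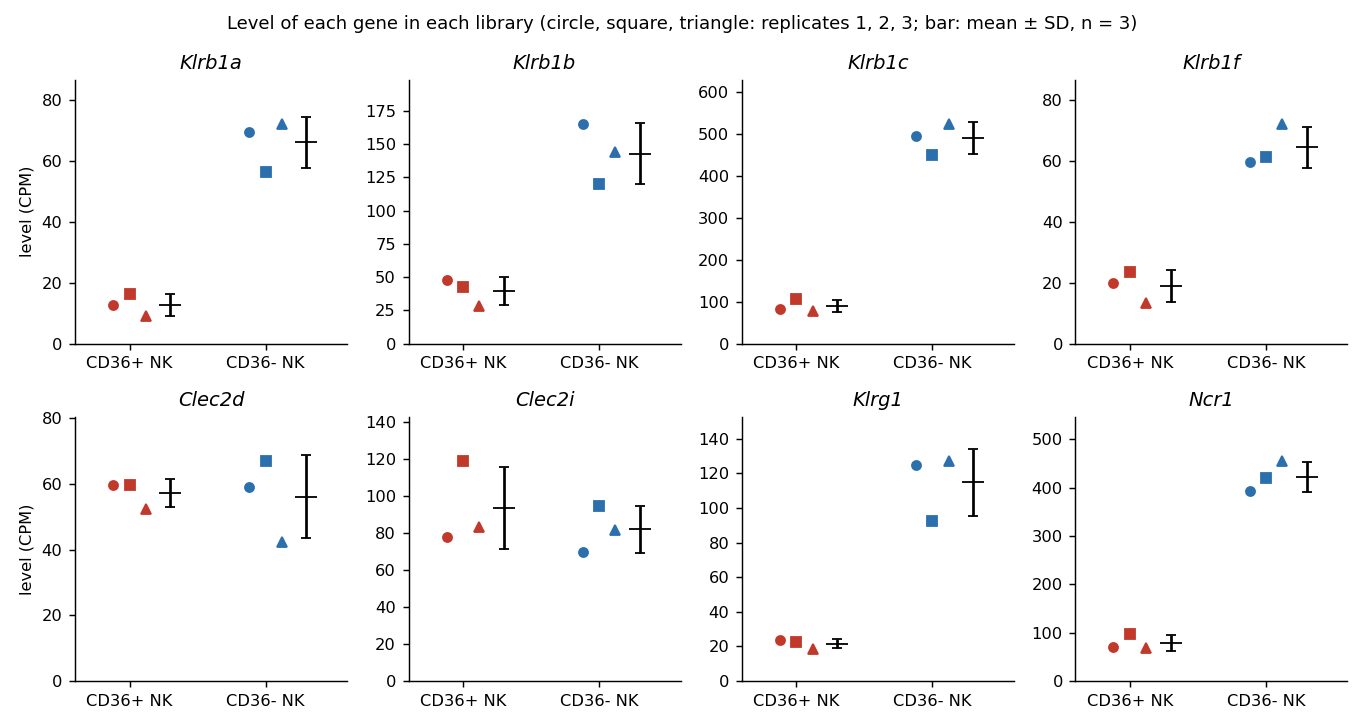
Level in CPM (y axis, linear, from 0) of the 8 genes in each library of CD36+ NK (red) and CD36- NK (blue), with the bar at the mean ± SD of 3 libraries. The 6 receptor genes separate by group without overlap, whereas the groups overlap for Clec2d and Clec2i.

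Klrb1c (ENSMUSG00000030325, chromosome 6, 128755448 to 128766178, minus strand), the gene of NK1.1, measured 83.1, 105.7 and 77.9 CPM in CD36+ NK replicates 1 to 3 and 495.1, 448.5 and 524.3 CPM in CD36- NK replicates 1 to 3. The lowest CD36- NK library was thus more than 4 times the highest CD36+ NK library, although cells of both groups had passed the NK1.1 gate. The log2 fold change was -2.46 (SE 0.14, 95% interval -2.80 to -2.12, edgeR adjusted p = 0.000428), which placed Klrb1c 13th by p-value among all tested genes.

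Klrb1a (ENSMUSG00000030361, chromosome 6, 128586190 to 128600496, minus strand) encodes NKR-P1A, an activating receptor that signals through the FcR gamma chain. It was among the least abundant of the receptors, at 12.8, 16.1 and 8.90 CPM in CD36+ NK and 69.6, 56.3 and 72.2 CPM in CD36- NK. No library of one group reached the other group, and the log2 fold change was -2.38 (SE 0.22, edgeR adjusted p = 0.00177), a 5.22-fold lower level.

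Klrb1f (ENSMUSG00000030154, chromosome 6, 129022864 to 129034427, plus strand) encodes NKR-P1F, the receptor of Clr-g. It measured 19.9, 23.5 and 13.2 CPM in CD36+ NK and 59.8, 61.4 and 72.3 CPM in CD36- NK. Its CD36- NK libraries were close to one another and all of them more than 2 times the highest CD36+ NK library. The log2 fold change was -1.77 (SE 0.21, 95% interval -2.27 to -1.27, edgeR adjusted p = 0.00452), the smallest among the 6 receptors.

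Klrb1b (ENSMUSG00000079298, chromosome 6, 128790669 to 128803294, minus strand) is the only inhibitory gene among the 4 NKR-P1 genes described here. Its product carries an inhibitory motif in its cytoplasmic tail. The 3 CD36+ NK libraries gave 48.1, 42.7 and 28.1 CPM, and the 3 CD36- NK libraries gave 165.3, 119.6 and 143.7 CPM. The groups did not overlap, and the log2 fold change was -1.85 (SE 0.22, 95% interval -2.36 to -1.34, edgeR adjusted p = 0.00423), so the level in CD36+ NK was 27.7% of that in CD36- NK.

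Klrg1 (ENSMUSG00000030114, chromosome 6, 122247555 to 122259841, minus strand) lies on the same chromosome outside the NKR-P1 stretch. It was the steadiest of the receptors within CD36+ NK, at 23.6, 22.5 and 18.7 CPM, while CD36- NK gave 125.1, 92.6 and 127.1 CPM. Between the groups the log2 fold change was -2.41 (SE 0.16, 95% interval -2.79 to -2.03, edgeR adjusted p = 0.00051).

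Ncr1 (ENSMUSG00000062524, chromosome 7, 4340723 to 4348163, plus strand), the only one of the 8 on another chromosome, measured 69.8, 97.6 and 67.3 CPM in CD36+ NK and 393.7, 419.3 and 455.3 CPM in CD36- NK. Every CD36- NK library was more than 4 times the highest CD36+ NK library. On the log2 scale the change was -2.43 (SE 0.17, 95% interval -2.82 to -2.04, edgeR adjusted p = 0.000527), close to that of Klrb1c.

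The ligand genes stood at similar levels in both groups. Clec2d (ENSMUSG00000030157, chromosome 6, 129157578 to 129163497, plus strand) encodes Clr-b, the ligand of NKR-P1B, and measured 59.8, 59.8 and 52.4 CPM in CD36+ NK and 59.1, 67.0 and 42.4 CPM in CD36- NK. The CD36+ NK values lay within the span of the CD36- NK values, and the mean levels were 57.3 ± 4.29 CPM and 56.2 ± 12.6 CPM (SD, n = 3). The log2 fold change was 0.03 (SE 0.17, edgeR adjusted p = 0.941) with a 95% interval from -0.37 to 0.43, which covers fold changes between 0.773 and 1.35.

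Clec2i (ENSMUSG00000030365, chromosome 6, 128864551 to 128875130, plus strand) encodes Clr-g, the ligand of NKR-P1F. It measured 77.9, 118.9 and 83.4 CPM in CD36+ NK and 69.5, 94.5 and 81.7 CPM in CD36- NK. Replicate 2 was the highest library of each group, and the groups overlapped. The log2 fold change was 0.19 (SE 0.19, edgeR adjusted p = 0.587) with a 95% interval from -0.25 to 0.63, or between 0.84-fold and 1.55-fold, so a change as large as that of any receptor lay outside the interval. An antisense gene, BC035044, overlaps Clec2i and had 3759 counts over the 6 libraries. Whether the counting used strand is not stated, so reads from any part that BC035044 and Clec2i share cannot be told apart. How much of their exons they share was not measured.

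**Figure D2:**
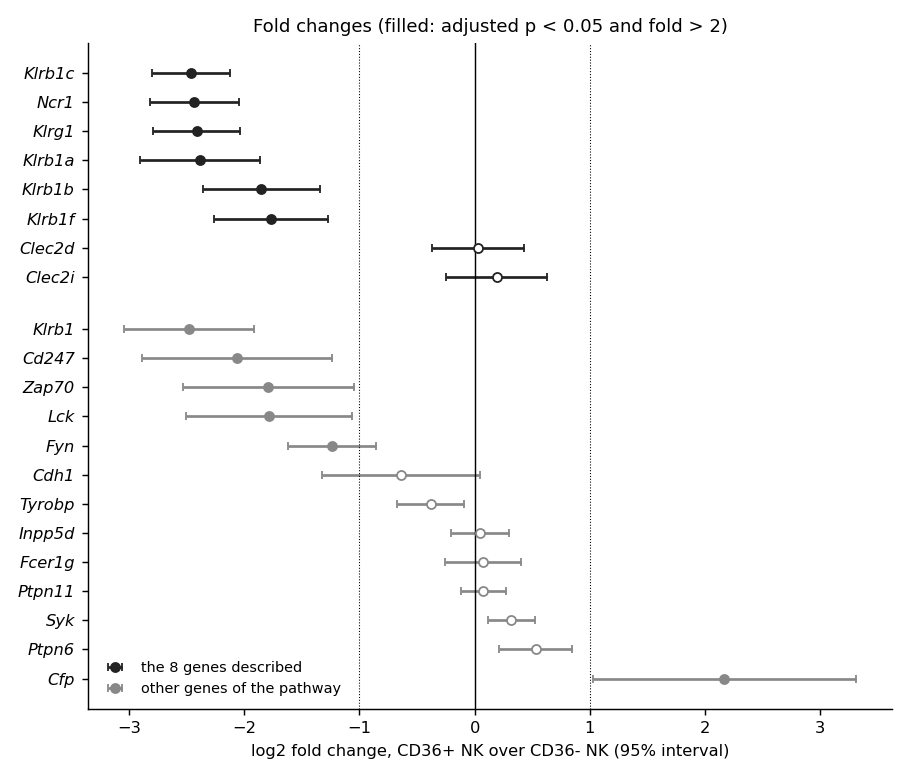
Log2 fold change of CD36+ NK over CD36- NK (x axis) with its 95% interval for the 8 genes (black) and the 13 tested pathway genes (grey). Filled points were called, and dotted lines mark 2-fold. The 6 receptor genes lie between -2.46 and -1.77, Clec2d and Clec2i lie at 0.03 and 0.19, and Cfp is the only filled point on the right.

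Reads that map equally to several members of these families are a further limit on the single values. Of the distinct stretches of 50 bases in the GENCODE transcripts, 9.92% of those of Klrb1a, 5.77% of those of Klrb1b and 5.73% of those of Klrb1c also occur in another gene, most often in one another. The share was 4.1% for Clec2i and 1.98% for Clec2d, both mostly with Clec2g, and 0 for Klrb1f, Klrg1 and Ncr1. How many reads this affected, and how far it moved the values of the sharing genes, was not measured.

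Levels were compared between genes after division by gene length, as CPM per kilobase. Ncr1 led in CD36- NK at 265.9 ± 19.5 CPM per kb, followed by Klrb1c at 100.4 ± 7.85, Klrg1 at 81.3 ± 13.7, Clec2d at 46.3 ± 10.4 and Klrb1b at 33.8 ± 5.40 (SD, n = 3). Klrb1f (21.2 ± 2.23), Klrb1a (19.7 ± 2.54) and Clec2i (14.96 ± 2.29) came last, and the libraries of each overlapped those of the next in this order, as did those of Clec2d and Klrb1b. In CD36- NK the Clr-b gene was thus the fourth and the Clr-g gene the lowest of the 8.

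The order was different in CD36+ NK. Ncr1, at 49.2 ± 10.6 CPM per kb, and Clec2d, at 47.3 ± 3.54, overlapped at the top. Klrb1c (18.3 ± 3.04), Clec2i (17.1 ± 4.07) and Klrg1 (15.3 ± 1.81) formed a second set whose neighbours overlapped, separate from Clec2d above and from Klrb1b below. Klrb1b (9.37 ± 2.44), Klrb1f (6.197 ± 1.72) and Klrb1a (3.76 ± 1.08) were lowest, again with overlapping neighbours. These levels describe the order and were not tested.

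Within the NKR-P1 genes, Klrb1c made up 57.4% ± 1.22 of the summed level per kb in CD36- NK and 49.0% ± 4.98 in CD36+ NK (SD, n = 3). Klrb1b made up 19.3% ± 2.02 and 24.9% ± 3.88, and Klrb1f 12.1% ± 1.11 and 16.3% ± 1.46, in the same order of groups. Klrb1a made up 11.2% ± 0.469 and 9.89% ± 0.944. The shares of Klrb1c, Klrb1b and Klrb1f each separated by group, since Klrb1c did not exceed 53.95% in any CD36+ NK library or fall under 56.1% in any CD36- NK library.

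The ratio between 2 of the genes was compared for 6 pairs, a pair of them receptor to ligand and the other 4 receptor to receptor, each by an exact two-sided permutation test over the 6 libraries, in which the smallest p that 3 against 3 libraries allow is 0.1. Klrb1b over Clec2d, the inhibitory receptor over its ligand, was 0.804, 0.713 and 0.537 in CD36+ NK and 2.80, 1.79 and 3.39 in CD36- NK, as ratios of CPM. All CD36+ NK libraries had more Clec2d than Klrb1b reads and all CD36- NK libraries fewer. These ratios are not divided by length, and Klrb1b is the longer gene (4226 against 1213 bases). Per kb, Clec2d was above Klrb1b on average in both groups. The means were 47.3 against 9.37 in CD36+ NK and 46.3 against 33.8 in CD36- NK, where the libraries overlapped. The ratio of Klrb1b to Clec2d was 3.66-fold lower in CD36+ NK (exact permutation p = 0.1, 0.2 after adjustment over the 6 pairs).

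Klrb1f over Clec2i behaved in the same way, with 0.255, 0.198 and 0.159 in CD36+ NK and 0.861, 0.649 and 0.885 in CD36- NK. This ratio was also 3.66-fold lower (exact permutation p = 0.1, adjusted 0.2). Both reached the smallest p that this permutation test allows, which is above 0.05.

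Among the receptors, the inhibitory Klrb1b was set against the activating Klrb1c. Klrb1b over Klrb1c was 0.578, 0.404 and 0.361 in CD36+ NK and 0.334, 0.267 and 0.274 in CD36- NK. The groups did not overlap, and the ratio was 1.54-fold higher in CD36+ NK (exact permutation p = 0.1, adjusted 0.2). Klrb1a over Klrb1c, 2 activating receptors, ran from 0.114 to 0.154 in CD36+ NK and from 0.126 to 0.141 in CD36- NK, with overlap (exact permutation p = 0.3, adjusted 0.45).

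The ratio of Klrg1 to Ncr1, an inhibitory to an activating receptor, was 0.338, 0.231 and 0.278 in CD36+ NK and 0.318, 0.221 and 0.279 in CD36- NK (exact permutation p = 0.6, adjusted 0.72). The groups overlapped. Klrb1c over Ncr1 was 1.19, 1.08 and 1.16 in CD36+ NK and 1.26, 1.07 and 1.151 in CD36- NK, with a log2 difference of -0.02 (exact permutation p = 1.0). These genes lie on different chromosomes, and their ratio stayed between 1.07 and 1.26 in all 6 libraries while both levels differed more than 5-fold between the groups.

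Each gene was next set against the NK-lineage genes of its own library, as log2(CPM + 2) minus the mean of the same quantity over the 10 marker genes. A change in the scaling of a library moves a gene and these reference genes alike. Klrg1 differed between the groups by -0.02 (exact permutation p = 1.0), Klrb1a by 0.04 (exact permutation p = 0.9), Ncr1 by -0.14 (exact permutation p = 0.5) and Klrb1c by -0.16 (exact permutation p = 0.3) on the log2 scale. The libraries of these 4 genes overlapped between the groups. Against the 8 conventional NK genes in place of these 10, the difference was -0.30 for Klrb1c, at the smallest p allowed (exact permutation p = 0.1), and -0.28 for Ncr1 (exact permutation p = 0.3). Against the first 10 genes, the difference of Klrb1c was -0.04 without CD36+ NK replicate 1 and -0.26 without CD36+ NK replicate 2, and that of Ncr1 was 0.0134 and -0.27.

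Klrb1b lay 0.46 higher in CD36+ NK relative to the same 10 genes, with overlap (exact permutation p = 0.2, 0.4 after adjustment over the 8 genes). Klrb1f lay 0.58 higher without overlap, at -2.11, -1.79 and -2.23 in CD36+ NK and -2.68, -2.51 and -2.70 in CD36- NK (exact permutation p = 0.1, adjusted 0.267). Against the conventional NK genes this difference was 0.44 (exact permutation p = 0.2). The ligands stood furthest apart, with relative levels higher in CD36+ NK by 2.33 for Clec2d and 2.45 for Clec2i, both without overlap (exact permutation p = 0.1, adjusted 0.267). The 10 reference genes fell, with a median log2 fold change of -2.26, so a gene at an unchanged level also scores higher here. The log2 fold changes of Clec2d and Clec2i themselves were 0.03 and 0.19. Beside these values, B cell and macrophage genes were at higher summed levels in the CD36+ NK libraries, as given above. The part of other cells in the ligands' level was not tested.

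**Figure D3:**
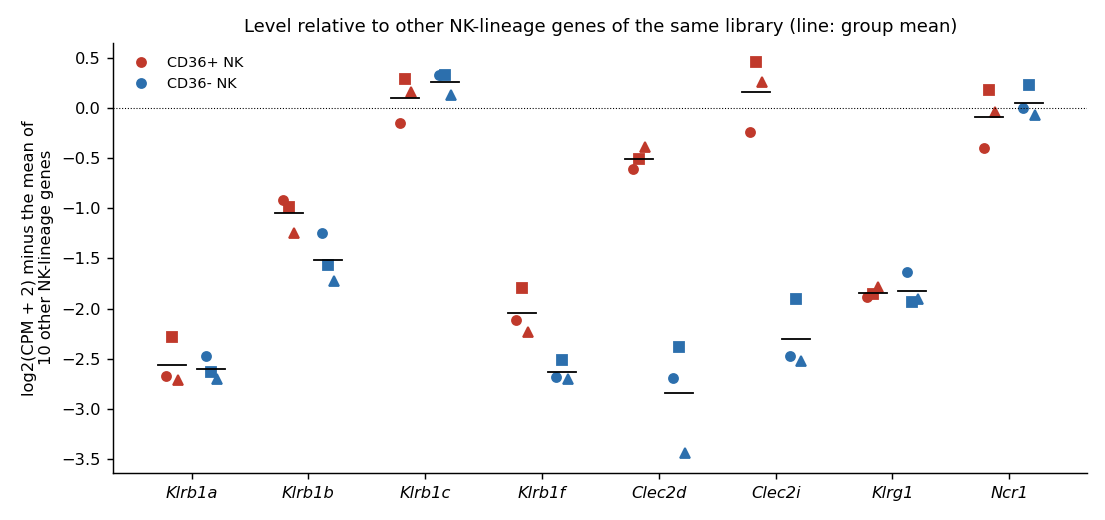
Level of each gene relative to the mean of 10 other NK-lineage genes of the same library (y axis, difference in log2(CPM + 2)), for CD36+ NK (red) and CD36- NK (blue), with lines at the means of 3 libraries. Klrg1, Klrb1a, Klrb1c and Ncr1 overlap between the groups. Relative to the 10 genes, which themselves fell, Clec2d and Clec2i are higher in CD36+ NK by 2.33 and 2.45.

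In the deposited table the 4 NKR-P1 genes, Clec2i and Clec2d lie along a 577.3 kb stretch of chromosome 6 that runs from Klrb1a to Clec2d and holds 37 genes, of which 14 were tested. Among the Klrb1 and Clec2 genes that were tested, Klrb1a is followed by Klrb1 at 99.5 kb, Klrb1c at 165.7 kb, Klrb1b at 202.8 kb, Clec2i at 264.1 kb, Klrb1f at 422.4 kb and Clec2d at 557.1 kb. Clec2i, with its log2 fold change of 0.19, therefore lies between Klrb1b at -1.85 and Klrb1f at -1.77. Genes that fell and genes that were not called alternate along the stretch rather than filling separate ends. Gm44511, a transcript on the strand of Klrb1b and Klrb1c that overlaps both, fell with a log2 fold change of -2.05 (edgeR adjusted p = 0.00817), and reads from any part it shares with them cannot be told apart.

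**Figure D4:**
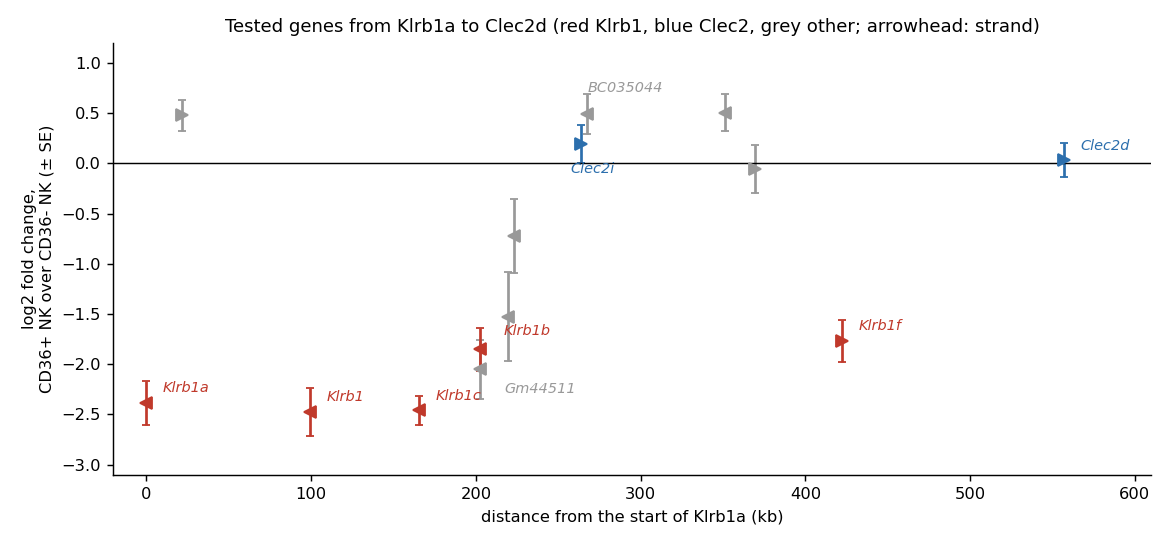
Log2 fold change ± SE (y axis) of the 14 tested genes between Klrb1a and Clec2d against distance along chromosome 6 in kb (x axis), with arrowheads for strand. Klrb1 genes (red) lie between -2.48 and -1.77, and the Clec2 genes (blue) near 0 at 264.1 and 557.1 kb.

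The 250 bases before the RefSeq start of each gene are shown for the 4 NKR-P1 genes and for Clec2d, because the NKR-P1 genes fell together and the neighbouring Clr-b gene was not called. RefSeq (GRCm38.p6, another build than that of the table's coordinates) had an entry for 7 of the 8 genes, and not for Klrg1. In the GENCODE annotation of GRCm38 the genes Klrb1a and Klrb1c begin 599 and 574 bases further upstream, so their windows lie inside the annotated gene, while the other RefSeq starts lay within 16 bases of the GENCODE start. Capitals mark the letters TGTGGT (or ACCACA), the core bound by RUNX factors, and GGAAGT (or ACTTCC), bound by ETS factors, searched on both strands; the T-box letters GGTGTGA were searched too and were in none of the 7. The windows are chr6:128788642-128788891 (minus strand) for Klrb1c, chr6:128622935-128623184 (minus) for Klrb1a, chr6:128826316-128826565 (minus) for Klrb1b, chr6:129045651-129045900 (plus) for Klrb1f and chr6:129180365-129180614 (plus) for Clec2d.
Klrb1c: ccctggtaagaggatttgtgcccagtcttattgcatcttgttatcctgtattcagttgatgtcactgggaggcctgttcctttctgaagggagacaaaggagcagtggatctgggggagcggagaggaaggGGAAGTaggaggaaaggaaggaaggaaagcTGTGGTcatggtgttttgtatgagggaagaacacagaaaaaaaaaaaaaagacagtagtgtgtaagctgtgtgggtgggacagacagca
Klrb1a: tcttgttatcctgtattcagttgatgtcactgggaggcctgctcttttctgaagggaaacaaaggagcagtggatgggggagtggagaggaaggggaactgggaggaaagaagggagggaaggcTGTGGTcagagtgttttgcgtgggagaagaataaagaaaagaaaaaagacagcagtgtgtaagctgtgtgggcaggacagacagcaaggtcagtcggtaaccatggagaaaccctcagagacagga
Klrb1b: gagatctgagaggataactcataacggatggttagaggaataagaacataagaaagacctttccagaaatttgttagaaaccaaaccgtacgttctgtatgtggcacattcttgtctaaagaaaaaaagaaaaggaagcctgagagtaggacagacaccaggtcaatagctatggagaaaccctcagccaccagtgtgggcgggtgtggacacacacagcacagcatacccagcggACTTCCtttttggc
Klrb1f: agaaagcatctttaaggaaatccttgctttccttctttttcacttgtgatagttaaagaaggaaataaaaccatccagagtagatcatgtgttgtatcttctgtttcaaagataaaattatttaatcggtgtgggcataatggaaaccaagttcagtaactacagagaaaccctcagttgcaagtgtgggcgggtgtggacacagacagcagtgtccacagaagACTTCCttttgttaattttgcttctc
Clec2d: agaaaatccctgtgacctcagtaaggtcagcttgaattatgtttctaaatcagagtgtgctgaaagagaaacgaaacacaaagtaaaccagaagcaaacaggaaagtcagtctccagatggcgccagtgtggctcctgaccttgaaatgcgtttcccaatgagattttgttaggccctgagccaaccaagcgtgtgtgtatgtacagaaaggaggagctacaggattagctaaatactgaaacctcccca

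The RUNX letters stood 126 to 121 bases upstream in Klrb1a and 89 to 84 bases upstream in Klrb1c, within a shared surrounding sequence, and 2 further matches were in Ncr1. They occur in 14.05% of the 32851 windows of this length in the RefSeq table. The ETS letters stood in Klrb1b, Klrb1c and Klrb1f and in 19.7% of all windows, and the T-box letters in 3.33%. Clec2d and Clec2i had none of the 3 motifs. A match describes letters in this window and not a bound site.

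The NKR-P1 windows fell into 2 like pairs. Klrb1a and Klrb1c had the longest run in common of the 21 pairs of windows, 41 unbroken bases, and 87.4% of the 215 columns of their local alignment were identical. Klrb1b and Klrb1f had the next longest, 22 bases, with 78.7% of 94 columns identical. Across these pairs the longest run was 16 bases, between Klrb1a and Klrb1b. The log2 fold changes of the first pair were -2.38 and -2.46 and those of the second -1.85 and -1.77, values given side by side without a test of a relation.

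The other genes of the pathway were taken from a list of 20, of which 13 had enough counts, 5 were called lower in CD36+ NK and 1 higher (2.98% of all tested genes were called lower and 2.98% higher). With a single library left out the counts ran from 2 to 5 lower and from 0 to 1 higher, with 2 lower when CD36+ NK replicate 2 or CD36- NK replicate 1 or 3 was left out. The median log2 fold change of the 13 was -0.38. Klrb1, which encodes NKR-P1G, was scarce and fell like its neighbours, from 6.84, 8.05 and 10.2 CPM in CD36- NK to 1.34, 1.62 and 1.496 CPM in CD36+ NK (log2 fold change -2.48, SE 0.24, edgeR adjusted p = 0.00207). The remaining Clr genes were barely present, with 46 counts over the 6 libraries for Clec2g, 21 for Clec2f, 7 for Clec2l, 3 for Clec2e and 0 for Clec2h. Clec2d and Clec2i were thus the 2 Clr genes with enough counts to be tested.

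Of the 3 adaptor genes on the list, the gene of the CD3 zeta chain was called lower and those of the FcR gamma chain and DAP12 were not. Cd247, the gene of CD3 zeta, measured 40.0, 16.8 and 16.3 CPM in CD36+ NK and 97.5, 91.5 and 115.5 CPM in CD36- NK (log2 fold change -2.06, SE 0.35, edgeR adjusted p = 0.0144). Its highest CD36+ NK library was replicate 1, the library with the high T cell markers, and without that library the log2 fold change was -2.63. Fcer1g, the gene of FcR gamma, measured 278.9, 338.3 and 371.9 CPM in CD36+ NK and 338.5, 331.9 and 270.6 CPM in CD36- NK. The groups overlapped, and the log2 fold change of Fcer1g was 0.07 (95% interval -0.26 to 0.41, edgeR adjusted p = 0.804). Tyrobp, the gene of DAP12, was lower in CD36+ NK in every library but was not called (log2 fold change -0.38, SE 0.12, edgeR adjusted p = 0.0938).

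The adaptor and its receptor stood in different proportion in the 2 groups. Fcer1g over Ncr1, as a ratio of CPM, was 3.997, 3.47 and 5.53 in CD36+ NK and 0.860, 0.792 and 0.594 in CD36- NK. Cd247 over Ncr1 was 0.573, 0.172 and 0.242 in CD36+ NK and 0.248, 0.218 and 0.254 in CD36- NK, with overlap. FcR gamma is also used by Fc receptors of macrophages, whose marker genes were higher in CD36+ NK as given above, and their part in the level of Fcer1g was not tested.

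Of the 4 kinases that signal with these adaptors, 3 fell. Fyn fell from 362.9, 363.0 and 529.2 CPM to 170.3, 175.6 and 185.6 CPM (log2 fold change -1.24, SE 0.16, edgeR adjusted p = 0.00631). Lck and Zap70, kinases used by NK and T cells, fell with log2 fold changes of -1.78 and -1.79 (edgeR adjusted p = 0.015 and 0.0167). Both were highest among CD36+ NK libraries in replicate 1, where Lck measured 189.2 CPM against 94.9 and 84.7 CPM. Syk, a kinase that B and myeloid cells use as well, was not called. The CD36+ NK libraries lay between 1035 and 1111 CPM and the CD36- NK libraries between 832.3 and 886.4 CPM (log2 fold change 0.32, edgeR adjusted p = 0.0612). The calls of Cd247 and Lck were lost when CD36+ NK replicate 2 or either of CD36- NK replicates 1 and 3 was left out, with adjusted p up to 0.0574 and 0.0643, and that of Zap70 also when CD36+ NK replicate 3 was, up to 0.0721, as well as with a block by library number.

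Phosphatases recruited by inhibitory receptors such as NKR-P1B and KLRG1 were not called. Ptpn6, the gene of SHP-1, had a log2 fold change of 0.53 (edgeR adjusted p = 0.0512), Ptpn11 one of 0.08 and Inpp5d one of 0.05. Ptpn6 was higher in every CD36+ NK library, from 613.3 to 663.7 CPM against 355.4 to 480.1 CPM, with a fold change of 1.44. The inhibitory receptors thus fell by 3.61-fold for Klrb1b and 5.32-fold for Klrg1, while none of these 3 genes passed the test.

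Ligands of KLRG1 and NKp46 were looked at in the same libraries. Cdh1, which encodes E-cadherin, a ligand of KLRG1, measured 6.59, 3.83 and 5.24 CPM in CD36+ NK and 8.53, 10.1 and 5.67 CPM in CD36- NK, with overlap (log2 fold change -0.64, edgeR adjusted p = 0.218). Cdh2 and Cdh4, of N- and R-cadherin, had 4 and 0 counts over the 6 libraries. Cfp encodes properdin, a complement protein that myeloid cells make and that has been described as a ligand of NKp46. Its level rose, with 198.4, 275.8 and 528.1 CPM in CD36+ NK and 60.7, 120.2 and 41.9 CPM in CD36- NK (log2 fold change 2.17, SE 0.49, edgeR adjusted p = 0.0353). Macrophage genes moved in the same direction as Cfp, and their part was not tested. Leaving out a library ended the call of Cfp for replicates 2 and 3 of CD36+ NK (adjusted p 0.0834 and 0.0943) and for replicates 1 and 3 of CD36- NK (adjusted p 0.121 and 0.105). A replicate block by title number or by library number ended the call as well.

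The genes whose values over the 6 libraries ran most like those of each receptor were found by the root mean square (RMS) difference of centred log2(CPM + 2) among 8085 genes of at least 20 CPM on average, leaving out the other 7 described here. Klrb1c was nearest to Klre1 (0.08), Gzma (0.11) and Klri2 (0.11), that is to lectin-like NK receptor genes and the gene of granzyme A. Ncr1 was nearest to Klri2 (0.10), Klre1 (0.11) and Klrc2 (0.12). Klrg1 was nearest to Tbx21 (0.08), the gene of the transcription factor T-bet, Nkg7 (0.09) and Ccl5 (0.10). Klrb1a was nearest to Klrd1 (0.14), the gene of CD94, Cd160 (0.14) and Camk2n1 (0.16).

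Klrb1b, which shares Camk2n1 with Klrb1a, was nearest to Cd7 (0.09), a surface protein of lymphocytes, Dok2 (0.13) and Camk2n1 (0.15), and Klrb1f to Gm4956 (0.11), Rnf43 (0.17) and Atp2b4 (0.17). Between the 8 genes themselves, Klrb1c and Ncr1 were closest at 0.08, while Klrb1b lay 0.21 from Klrb1f and 0.38 from Klrb1c. Clec2d was nearest to Phf11b, Rnf5 and Slfn2 (0.04, 0.04 and 0.05) and Clec2i to Dgkq, Zmym6 and Ifi213 (0.06, 0.08 and 0.09), whose own log2 fold changes ran from 0.02 to 0.22. Each likeness rests on 6 values in 2 groups, and it was not split into a part between the groups and a part within them.

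Beside the conventional NK genes, which include Eomes and Itga2, the receptor genes moved in the same direction. The 8 conventional NK genes summed to between 780.8 and 868.6 CPM in CD36+ NK and between 3343 and 4275 CPM in CD36- NK, and 7 of 8 fell, with a median log2 fold change of -2.58. The 7 genes of liver-resident NK cells or ILC1 in the table, which include Itga1 and Cxcr6, summed to between 296.0 and 401.0 CPM in CD36+ NK and between 317.5 and 363.9 CPM in CD36- NK, and 0 of 7 were called. Most of that sum was Ltb, at 265.7 and 228.3 CPM on average, and 5 of the 7 genes had a negative log2 fold change. Itga1 (log2 fold change -0.90, edgeR adjusted p = 0.00996) and Tnfsf10 (-0.90, edgeR adjusted p = 0.0345) passed the adjusted p but not the 2-fold threshold. Ncr1 and Klrb1c are expressed by both kinds of cell, while KLRG1 is typical of mature conventional NK cells. Whether the mix of these cells differed between the gates was not tested.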

How the data were processed

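The 3 CD36+ NK and 3 CD36- NK libraries were grouped by sample title. The authors filtered reads with Seqtk, mapped them with HISAT2 (version 2.0.4 in the submitters' processing notes) and counted fragments per gene with StringTie 1.3.3b. The deposited counts are not normalized. FPKM values, also deposited by the authors, matched counts divided by one gene length and the library total within 1% in 100% of the 7439 genes above 200 counts in every library, which gave the gene lengths used per kilobase. The submitters' notes name mRatBN7.2, a rat assembly, although the identifiers are those of mouse genes. The build of the table's coordinates is not given in the sources used here, and 2.69% of 51884 genes had GRCm38 coordinates. The broken lines of 2 genes (Tgfb1 and Tnf) were rejoined.

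Counts were fitted with edgeR 4.0.16 in R 4.3.3 (filterByExpr with a minimum count of 10, TMM, quasi-likelihood F test, group only), and p-values were adjusted by Benjamini-Hochberg over 14761 genes. A call needed an adjusted p under 0.05 together with a more than 2-fold difference. CPM are scaled by TMM. The SE of a log2 fold change is its size over the root of its F statistic. Relative levels and ratios used log2(CPM + 2) and exact permutation tests in scipy 1.17.1 (Python 3.11.15). The total counts per library bound the precision, from 10292480 to 13787189. Replicates differed by more than sampling noise (chi-square over degrees of freedom between 13.5 and 26.5). The script was tested on simulated data.

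The other settings tried were upper-quartile scaling, DESeq2 1.42.0, the exact test of edgeR, other filters, no fold threshold, a pseudocount of 0.5, the conventional NK list as reference, deposited FPKM for the levels, replicate blocks, a batch term for the form of the library name, and each library left out. The library names of the CD36+ NK samples carry a minus sign after CD36, opposite to their titles. Those of the CD36- NK samples carry no plus sign. The titles were followed. The named genes are the 8 genes, pathway genes that were called or are ligands or adaptors, and the 3 genes of nearest pattern to each. Kinases and phosphatases of the pathway list that were not called were named after their values were seen. The genes and lists were chosen with earlier results of these data known. Motifs and the likeness of promoter windows were computed on RefSeq sequence; local alignments scored 1 for a match, -1 for a mismatch, -3 to open and -1 to extend a gap, and the likeness was examined after the fold changes had been seen.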

Additional observations from a re-analysis of the deposited data

How the results depend on the processing

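The 6 receptor genes were called lower, and 0 of the 8 genes higher, in each of 15 alternatives. The largest adjusted p over 14 fits was 0.0322, for Klrb1b. The log2 fold change of Clec2d ran from -0.14 to 0.18 and that of Clec2i from -0.0205 to 0.30 with single libraries left out, and 0 of 14 fits called either gene. Over all genes, 880 were called, against 1247 by edgeR's exact test, 1143 by DESeq2 and 417 to 1160 with a library left out. Samples of the same title number did not deviate together in every pair (correlations 0.37, 0.09 and -0.09), so the numbers were not taken to pair them. A replicate block by title number called 560 genes and one by library number 413, with 6 of the 8 genes lower in each, and both left 0 pathway genes higher, since Cfp was lost, while the block by library number also lost Zap70. With a library left out, pathway genes called ran from 2 to 5 lower and from 0 to 1 higher. Small relative differences changed sign. That of Klrb1a was -0.0679 with a pseudocount of 0.5, -0.10 against the conventional NK genes (where that of Klrb1c was -0.30, that of Ncr1 -0.28 and that of Klrb1f 0.44) and from -0.10 to 0.12 with a library left out, that of Klrg1 ran from -0.0718 to 0.0739, and that of Ncr1 from -0.27 to 0.0134. The log2 ratio differences ran from -0.0192 to 0.26 for Klrg1 to Ncr1 and from -0.0776 to 0.0387 for Klrb1c to Ncr1. The cause of these changes was not tested. Permutation tests of 3 against 3 libraries cannot pass 0.05, so they say nothing of stability. The differences of Clec2d and Clec2i are limited by the 20.3% variation between replicates. Clec2e, Clec2f, Clec2g, Clec2h and Clec2l had too few counts at this depth for a difference to be tested.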
